A study of Arabidopsis thaliana with 15 samples.

Results

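The nuclear genes for the photosystem subunits, the light-harvesting antenna and the small subunit of Rubisco were followed through the flg22 response of Arabidopsis seedlings. The members were a list of 40 named genes, all of them present among the 18934 genes of the count table, and all 40 passed the filter on low counts. They comprised 11 LHCB genes, 4 LHCA genes, 4 RBCS genes, 12 genes of photosystem I (PSI) subunits and 9 genes of photosystem II (PSII) subunits. The data were CAGE tags, which are read from the capped 5′ ends of RNA and so mark where transcription started. Whole Col-0 seedlings were grown for 12 days, kept for 48 h in liquid medium and given 3.3 µM flg22, a peptide of bacterial flagellin, at an age of 14 days. The 15 libraries came from wild type (wt) and the T-DNA line hen2-4 at 10 and 30 min of flg22 and from rrp4-2, a weak allele, at 30 min, with 3 libraries per group. HEN2 is an RNA helicase that feeds RNA to the nuclear exosome, and RRP4 is a core exosome subunit. Each genotype was represented by a single line, each library was a pool of 10 seedlings, and every group used here had received flg22. No untreated library was used. A change from 10 to 30 min that is due to flg22 therefore cannot be told apart from one due to handling or time. The replicates of a group were separate plates grown and treated in parallel, so the p-values measure the spread between such plates.

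Photosystems I and II are membrane complexes of the chloroplast whose core is largely encoded in the chloroplast genome, while the outer subunits and the antenna are encoded in the nucleus. LHCB proteins bind chlorophyll around PSII, with LHCB1, LHCB2 and LHCB3 in the trimeric antenna (LHCII) and LHCB4, LHCB5 and LHCB6 as monomers next to the core, and LHCA proteins form the antenna belt of PSI. Rubisco fixes carbon dioxide and takes its small subunit from a nuclear RBCS family. These genes are among the most highly transcribed of a green seedling, respond to light and the clock, and are often lower when defence responses are switched on.

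Levels are given as CPM, tags per 1000000 tags on library sizes adjusted with TMM factors, and differences as log2 values ± SE from one edgeR quasi-likelihood fit over all 15 libraries. A gene passed the test at a Benjamini-Hochberg adjusted p of at most 0.05 over all 18879 genes tested. The libraries held 13904125 to 24753128 gene tags and their TMM factors ran from 0.821 to 1.14, with all 6 libraries of 10 min above 1 and all 9 of 30 min below 1. The 10 root markers, all detected in each library, summed to 738 to 1273 CPM in wt at 10 min, 372 to 926 in wt at 30 min, 436 to 587 in hen2-4 at 10 min, 362 to 589 in hen2-4 at 30 min and 326 to 399 in rrp4-2. The sum of root markers thus differed between groups, and its part in the results below was not tested. PYK10 and BGLU21 made up most of this sum. Their means in wt were 523 and 279 CPM at 10 min and 303 and 211 CPM at 30 min. By log2 change in wt, 6 of the 10 markers were lower at 30 than at 10 min and 4 were higher, so the sum does not stand for all markers. In pooled whole seedlings, fewer green cells and less RNA of a gene per cell cannot be told apart.

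Each member had a single dominant tag cluster, a stretch of neighbouring starts on one strand, and these main clusters held 99.8% to 99.9% of all member tags in a library. The main clusters were wide, with a median of 274 bp against 131 bp over all genes, and 6.2% of all main clusters were at least as wide as the member median. Width is the full span of a cluster, down to its sparsest tags, and the members are abundant genes. Genes of like level were not set beside them, so the part of tag number in these widths was not tested. The narrowest was that of LHCB1.2 (chr1:10473226-10473346 of TAIR10, minus strand, 121 bp) and the widest that of LHCB4.1 (chr5:208834-209570, plus strand, 737 bp). Only tags that map once in the genome were counted, which matters for close copies. In LHCB1.1, 87.6% of the positions in the main cluster begin a 25-base tag found once in the genome, and the value was 91.7% for LHCB1.2, 91.7% for LHCB2.2 and 94.4% for RBCS1B. Over all genes, 92.5% of main clusters had such a tag at every position, as did those of LHCB1.3, LHCB1.4 and LHCB2.1. Levels of LHCB1, LHCB2 and RBCS copies relative to each other are therefore uncertain, while a change of one copy between groups rests on the same positions throughout.

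Promoters were read from 250 bases before to 50 bases after the 5′ edge of the main cluster and searched on both strands for 4 short motifs that share no full match with each other. The G-box, CACGTG, is bound by light-signalling factors and was found at 19 of 40 members against 9.9% of all 18629 promoters. The I-box, GATAAG, was found at 23 members against 15.4% of all promoters. CCAATC, a motif tied to the GLK transcription factors that switch on photosynthesis genes, was found at 16 members against 13.5% of all. The TATA box, TATAAA, was found at 17 members against 53.1% of all. The motifs were spread unevenly over the classes. The G-box was in 2 of 11 LHCB, 3 of 4 LHCA, 3 of 4 RBCS, 4 of 12 PSI and 7 of 9 PSII promoters, and CCAATC in 7 of 11 LHCB, 2 of 4 LHCA, 0 of 4 RBCS, 2 of 12 PSI and 5 of 9 PSII promoters. These are matches of letters anywhere in the window, not binding sites. TATAAA lay 34 bases past the edge at LHCB1.5 and at -229 at PSBP1, for example. The windows are set from the outer edge of clusters that are wider in members (median 274 against 131 bp over all genes). They may thus lie differently to the most used start in members and in all genes, and that distance was not measured.

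The 60 bases that end just before the main clusters of 7 antenna genes are shown because 6 of them carry CCAATC (capitals) in that stretch, and because the genes with the largest and with small changes over time are among them. The stretches end at the outer edge of wide clusters, and the distance of CCAATC from the most used start was not measured. They are given 5′ to 3′ on the strand of the gene, from the RefSeq copy of the nuclear genome (TAIR10.1).
LHCB1.1 (chr1:10476009-10476068, minus strand, no match): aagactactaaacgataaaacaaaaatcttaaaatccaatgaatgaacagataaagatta
LHCB1.3 (chr1:10477772-10477831, plus strand): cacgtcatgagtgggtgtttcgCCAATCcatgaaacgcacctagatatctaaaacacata
LHCB1.5 (chr2:14523634-14523693, minus strand): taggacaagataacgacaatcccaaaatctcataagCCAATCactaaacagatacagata
LHCB2.1 (chr2:1824500-1824559, minus strand): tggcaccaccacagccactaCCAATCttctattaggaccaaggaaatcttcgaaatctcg
LHCB2.2 (chr2:1800481-1800540, minus strand): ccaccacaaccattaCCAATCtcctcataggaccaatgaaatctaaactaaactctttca
LHCB5 (chr4:6407957-6408016, plus strand): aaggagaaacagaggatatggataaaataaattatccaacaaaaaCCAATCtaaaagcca
LHCA4 (chr3:17495063-17495122, minus strand): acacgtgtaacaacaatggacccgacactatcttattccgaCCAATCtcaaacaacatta

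The 100 bases before the main clusters of LHCB6 and of 4 PSI, PSII and RBCS genes are shown for the G-box, which all 5 carry there, and the I-box, which LHCB6, PSAH2 and RBCS2B carry there (both in capitals; CTTATC is the I-box on the other strand). RBCS2B, an RBCS gene of the cluster on chromosome 5, has an I-box on each side of its G-box.
LHCB6 (chr1:5447941-5448040, minus strand): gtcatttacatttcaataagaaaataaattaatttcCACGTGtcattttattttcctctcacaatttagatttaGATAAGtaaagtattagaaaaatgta
PSAH2 (chr1:19454685-19454784, plus strand): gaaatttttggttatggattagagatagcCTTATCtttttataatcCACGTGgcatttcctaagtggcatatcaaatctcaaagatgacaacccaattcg
PSBQ1 (chr4:11334221-11334320, plus strand): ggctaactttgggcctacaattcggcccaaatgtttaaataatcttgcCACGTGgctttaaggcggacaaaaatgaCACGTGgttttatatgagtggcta
PSBQ2 (chr4:2673281-2673380, minus strand): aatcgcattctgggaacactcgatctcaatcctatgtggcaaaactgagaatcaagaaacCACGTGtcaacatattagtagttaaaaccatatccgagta
RBCS2B (chr5:15382125-15382224, minus strand): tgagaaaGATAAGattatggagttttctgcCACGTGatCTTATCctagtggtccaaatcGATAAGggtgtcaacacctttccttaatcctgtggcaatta

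The members were among the most abundant transcripts of the seedlings. Together they took 8.44% ± 0.626 of gene tags in wt at 10 min, 5.75% ± 1.53 at 30 min, 8.03% ± 1.15 and 5.21% ± 0.533 in hen2-4 at 10 and 30 min, and 6.09% ± 0.353 in rrp4-2 (SD, n = 3 libraries per group). Of the 100 genes with the highest mean CPM, 21 were members. A CAGE tag is 1 capped end whatever the transcript length, so levels of genes were set side by side without a length term, within the limit on close copies above. PSAD1 (AT4G02770), whose product docks ferredoxin at PSI, was the highest member with 7114 CPM over the 15 libraries and ranked 3 among all genes. RBCS1A (5747 CPM) and RBCS3B (5620.0 CPM) ranked next, 4 and 5. The lowest were LHCB1.2 (113 CPM), LHCB1.1 (177 CPM) and LHCB1.4 (178 CPM), while LHCB1.3 of the same subfamily reached 1985 CPM.

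**Figure D1:**
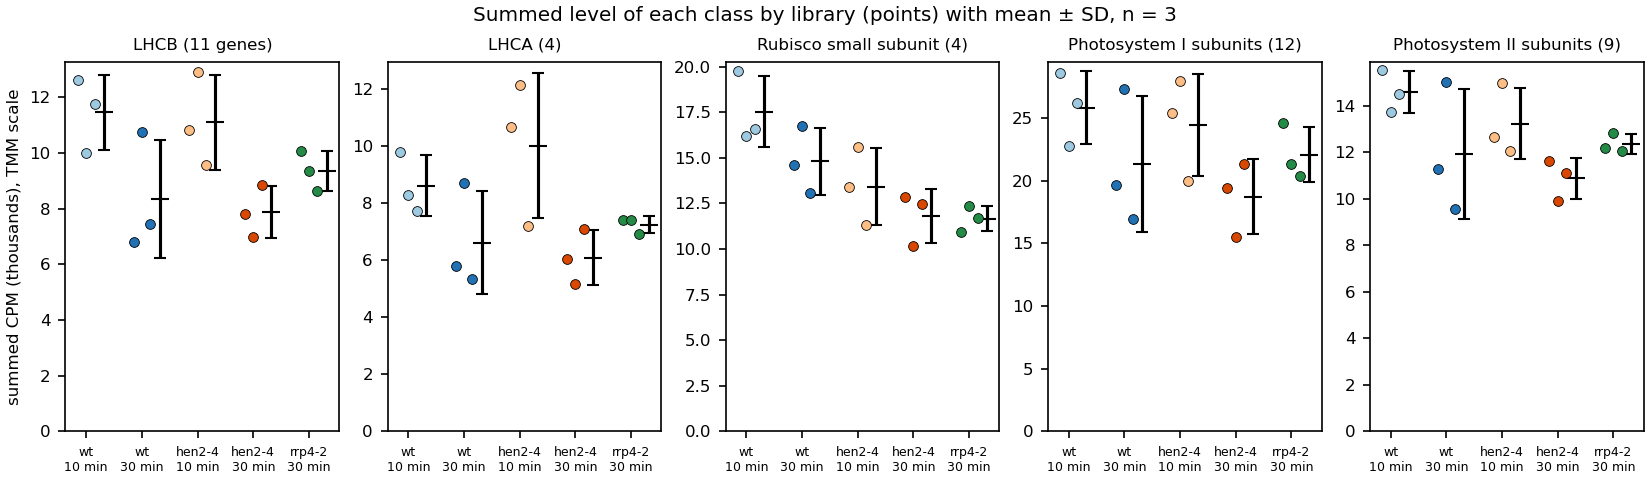
Summed CPM (in units of 1000 CPM, TMM scale) of each class on the y axis against the 5 groups on the x axis, with a point per library and the mean ± SD beside it. The LHCB sum had a mean of 11469 CPM in wt at 10 min and 8342 CPM at 30 min, and wt replicate 2 at 30 min lay above the other replicates of its group in every class.

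The plot of class sums by library shows the general picture. The LHCB genes summed to 11469 ± 1344 CPM in wt at 10 min and 8342 ± 2128 at 30 min, and to 11104 ± 1704 and 7871 ± 932 in hen2-4, with 9359 ± 719.5 in rrp4-2 at 30 min (SD, n = 3). In hen2-4 all 3 LHCB sums of 30 min lay below all 3 of 10 min, whereas in wt replicate 2 at 30 min (10771 CPM) lay within the range of 10 min. The RBCS genes summed to 17523 ± 1952 and 14809 ± 1827 CPM in wt, 13427 ± 2135 and 11819 ± 1472 in hen2-4 and 11667 ± 702 in rrp4-2, so that the group means were lower in both mutants than in wt at the same time. The same wt library, replicate 2 at 30 min, was the highest of its group in all 5 classes.

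How the members changed between 10 and 30 min of flg22 was asked in each genotype on its own. In wt, 6 of 40 members fell and 0 rose, where 7.72% of all genes fell and 12.2% rose. The members that fell in wt were the antenna genes LHCB1.1, LHCB1.4, LHCB1.2, LHCB3, LHCB2.1 and LHCB5. In hen2-4, 10 members fell and 1 rose, where 9.83% of all genes fell and 12.0% rose. All 6 genes that fell in wt also fell in hen2-4, together with LHCB1.5, LHCA4, LHCA3 and PSAN, and the gene that rose was RBCS1B. With a limit of 2-fold as well, 3 members fell in wt and 6 in hen2-4, against 3.63% and 5.31% of all genes. Without wt replicate 2 at 30 min the number past the test in wt was 12, all of them lower, where 6.54% of all genes were lower. It was 3 without wt replicate 1 or 3 at 10 min or 1 or 3 at 30 min. There 5.76%, 5.1%, 8.4% and 6.28% of all genes were lower. It was 10 without rrp4-2 replicate 1, which enters only through the shared spread, beside 8.01% of all genes. In hen2-4 it was 7 and 3 when replicate 1 or 2 of 10 min was left out. It was 6 and 5 (1 of these 5 higher) when that of 30 min was. The shares of all genes lower were 5.73%, 6.43%, 6.58% and 6.09%.

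Beyond the genes past the test, the log2 changes lay mostly below 0. The median over the members was -0.37 in wt and -0.38 in hen2-4, beside 0.01 and -0.002 over all genes. In each genotype 38 of 40 members had a value below 0, where 49.5% and 50.2% of all genes did, and 37 members were below 0 in both. In wt these values depended on single libraries, with a median of -0.19 without replicate 3 and -0.57 without replicate 2 of 30 min, and 31 members below 0 without replicate 1 of 10 min. The 10 root markers had medians of -0.23 in wt, with 6 below 0, and -0.365 in hen2-4, with 8 below 0, and the part of root tissue in the members' values was not tested. In wt all 3 libraries of 30 min lay below all 3 of 10 min for 11 members, against 15.5% of all genes, and in hen2-4 for 21 members (with PSBQ1 alone in the other direction), against 20.9% of all genes. The medians by class were -0.56 in wt and -0.90 in hen2-4 for LHCB, -0.38 and -0.73 for LHCA, -0.36 and -0.37 for PSII, -0.21 and -0.25 for PSI, and -0.17 and -0.13 for RBCS. Across the 40 members the changes in wt and in hen2-4, which share no library, had a Pearson r of 0.78 and a Spearman rho of 0.73 as a description. The scaling shifts these values: with library sizes alone, all genes had a median of -0.25 in wt and -0.24 in hen2-4, and the member medians -0.61 and -0.63 lay below it by about as much as before.

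**Figure D2:**
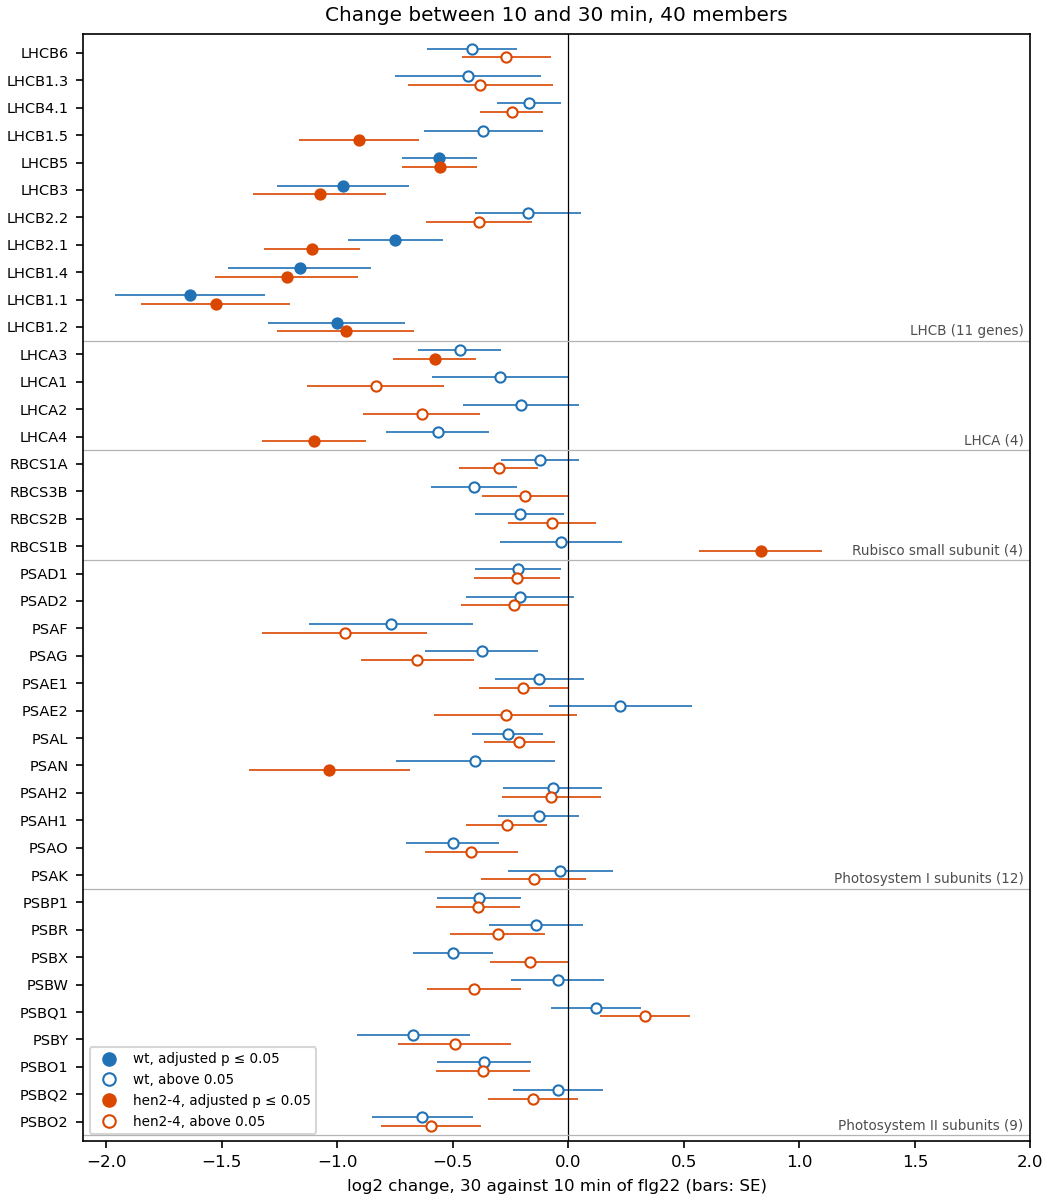
Log2 change from 10 to 30 min of flg22 (x axis, bars ± SE) for each of the 40 members (y axis, by class and falling mean CPM) in wt (blue) and hen2-4 (orange), filled where the adjusted p was at most 0.05. Most points lie left of 0, those of LHCB1.1 at -1.64 and -1.53 lie farthest, and RBCS1B in hen2-4 lies at 0.83.

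Most of the genes that fell belong to the trimeric antenna, where LHCB1.1 had the largest fall of all members in both genotypes. LHCB1.1 (AT1G29920) encodes a major LHCII protein and lies in a group of LHCB1 genes on chromosome 1 (chr1:10475880-10476008 for its main cluster). It had 354, 268 and 226 CPM in the 3 wt libraries of 10 min and 52.5, 138 and 82.5 in those of 30 min. In hen2-4 the values were 187, 313 and 235 CPM at 10 min and 84.5, 63.7 and 107 at 30 min. The times did not overlap in either genotype, and the log2 change was -1.64 ± 0.32 in wt (edgeR adjusted p = 0.00191) and -1.53 ± 0.32 in hen2-4 (edgeR adjusted p = 0.00361). LHCB1.4 (AT2G34430), on chromosome 2 (chr2:14524658-14524833), had 229, 174 and 263 CPM at 10 min and 88.8, 149.9 and 58.2 at 30 min in wt, a change of -1.16 ± 0.31 (edgeR adjusted p = 0.0143). In hen2-4 it had 189.9, 369.7 and 214 and 102, 118 and 112 CPM, a change of -1.22 ± 0.31 (edgeR adjusted p = 0.0109). For LHCB1.4, too, no library of 30 min reached one of 10 min of the same genotype.

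LHCB1.2 (AT1G29910), next to LHCB1.1 on the chromosome, had 184, 142 and 136 CPM at 10 min and 51, 110.2 and 69.2 at 30 min in wt, with a change of -1.002 ± 0.30 (edgeR adjusted p = 0.0263). Its change in hen2-4 was -0.96 ± 0.30 (edgeR adjusted p = 0.0307). LHCB3 (AT5G54270), a minor component of the LHCII trimers, had 1021, 714 and 847 CPM at 10 min and 360.4, 540.4 and 413 at 30 min in wt, a change of -0.97 ± 0.29 (edgeR adjusted p = 0.0254), and changed by -1.08 ± 0.29 in hen2-4 (edgeR adjusted p = 0.0149). LHCB2.1 (AT2G05100), whose protein takes part in moving antenna between the photosystems, had 403, 480.3 and 382 CPM at 10 min and 215, 169.6 and 202 at 30 min in hen2-4, a change of -1.11 ± 0.21 (edgeR adjusted p = 0.00148). In wt LHCB2.1 had 240.4, 261 and 357 and 122, 219 and 171 CPM, a change of -0.75 ± 0.21 (edgeR adjusted p = 0.0183). LHCB5 (AT4G10340), a monomeric antenna protein (CP26), fell by 0.56 on the log2 scale in wt and by 0.56 in hen2-4, with SE of 0.16 in each.

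Of these falls, those of LHCB1.1 in both genotypes and of LHCB2.1 and LHCA4 in hen2-4 stayed past the test whichever of the 15 libraries was left out, and the falls of the other genes lost it without at least 1 library. In wt, LHCB1.4 lost its call without replicate 3 at 10 min, and LHCB1.2, LHCB2.1, LHCB3 and LHCB5 without replicate 1 at 30 min among others.

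**Figure D3:**
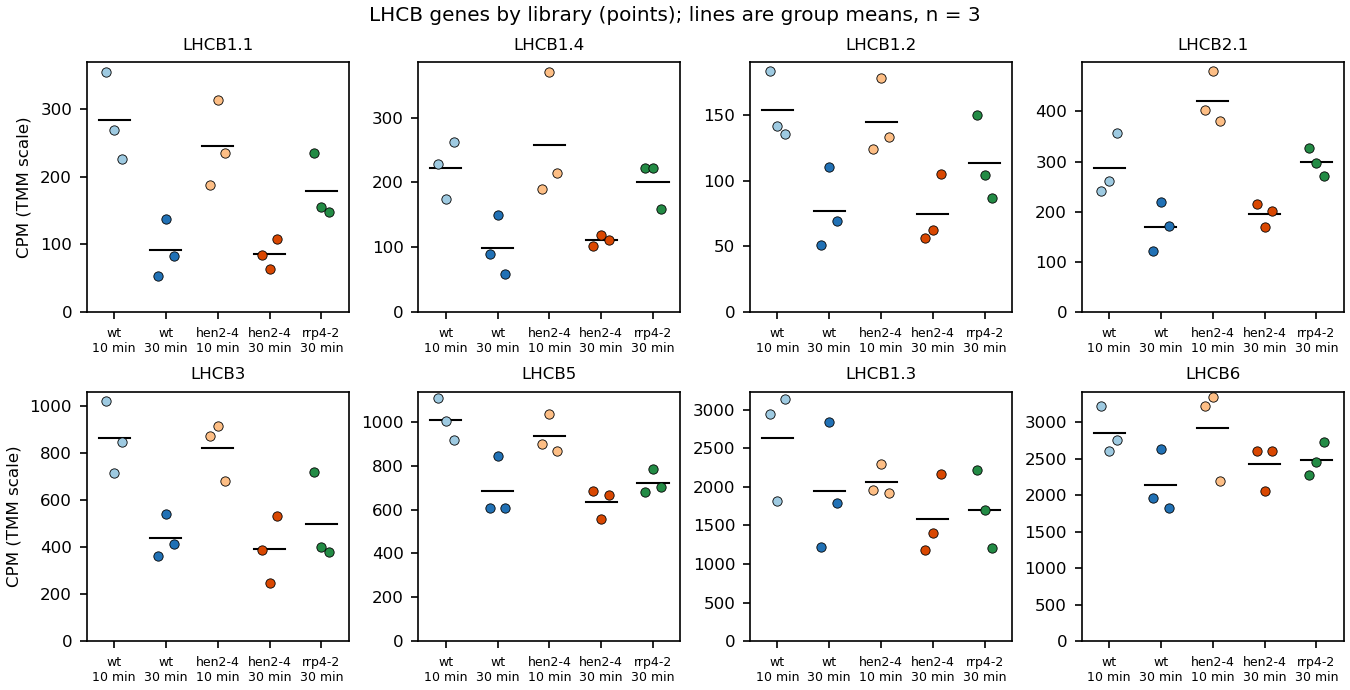
CPM (TMM scale, y axis from 0) of 8 LHCB genes in the 5 groups (x axis), a point per library and a line at the group mean. LHCB1.1 fell from 283 ± 64.9 to 91.0 ± 43.3 CPM in wt, and the rrp4-2 libraries had 179 ± 47.9 CPM (SD, n = 3), while for LHCB1.3 and LHCB6 the times overlap.

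The 3 most abundant LHCB genes did not pass a test over time. LHCB6 (AT1G15820), the monomeric antenna protein CP24 and the highest LHCB gene, had 3222, 2602 and 2754 CPM at 10 min and 1969, 2632 and 1823 at 30 min in wt. The times overlapped, and the change was -0.42 ± 0.19 in wt (edgeR adjusted p = 0.148) and -0.27 ± 0.19 in hen2-4 (edgeR adjusted p = 0.345). LHCB1.3 (AT1G29930) had 2948, 1814 and 3137 CPM at 10 min and 1225, 2838 and 1787 at 30 min in wt, with changes of -0.43 ± 0.31 in wt and -0.38 ± 0.31 in hen2-4 (edgeR adjusted p = 0.365 and 0.413). Its replicates varied widely, with a pooled SD of 0.44 log2 CPM within groups. LHCB4.1 (AT5G01530, CP29) had the smallest such SD of all members, 0.12, and changes of -0.17 ± 0.14 and -0.25 ± 0.14. Across the 40 members the mean level on the log2 scale and the change over time had a Pearson r of 0.46 and a Spearman rho of 0.22 in wt and of 0.37 and 0.30 in hen2-4, as a description over values of the same libraries.

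Among the antenna genes of PSI, the 2 highest were LHCA3 and LHCA1. LHCA3 (AT1G61520) had 4432, 4183 and 3593 CPM at 10 min and 2935, 3507 and 2374 at 30 min in wt, without overlap, and its change of -0.47 ± 0.18 did not pass the test (edgeR adjusted p = 0.0809). In hen2-4 it fell by 0.58 on the log2 scale (SE 0.18, edgeR adjusted p = 0.0327). LHCA1 (AT3G54890) had 4864, 5142 and 2534 CPM at 10 min and 2173, 1785 and 3076 at 30 min in hen2-4, where replicate 3 stood below the other 2 at 10 min and the times overlapped. Its change was -0.83 ± 0.30 in hen2-4 (edgeR adjusted p = 0.0562) and -0.30 ± 0.29 in wt (edgeR adjusted p = 0.523). LHCA4 (AT3G47470) had 561, 827 and 519 CPM at 10 min and 315, 247 and 328 at 30 min in hen2-4, a fall without overlap of 1.099 on the log2 scale (SE 0.22, edgeR adjusted p = 0.00276). LHCA2 (AT3G61470) changed by -0.21 ± 0.25 in wt and -0.63 ± 0.25 in hen2-4 and passed neither test.

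Apart from PSAN in hen2-4, no subunit gene of PSI passed a test over time. PSAD1 had 8143, 6905 and 8436 CPM at 10 min and 6059.7, 8358 and 5778 at 30 min in wt, and its changes were -0.22 ± 0.19 in wt and -0.22 ± 0.19 in hen2-4 (edgeR adjusted p = 0.45 and 0.421). Its copy PSAD2 (AT1G03130) had changes of -0.21 ± 0.23 and -0.23 ± 0.23 (edgeR adjusted p = 0.571 and 0.502). PSAN (AT5G64040), on the lumen side of PSI, had 1214, 1489.7 and 823 CPM at 10 min and 555, 431 and 737 at 30 min in hen2-4, a fall of 1.03 on the log2 scale (SE 0.35, edgeR adjusted p = 0.0459) that was lost under 8 of 23 alternatives. PSAF (AT1G31330), which docks plastocyanin, had 3905, 1351 and 1551 CPM in the rrp4-2 libraries, so that replicate 1 stood far above the others, and its change over time was -0.77 ± 0.36 in wt and -0.97 ± 0.36 in hen2-4 (edgeR adjusted p = 0.148 and 0.0646). PSAF and PSAN had the largest SD within groups of all members, 0.50 and 0.49 log2 CPM.

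No PSII subunit passed a test over time, the lowest adjusted p being 0.0534 in wt and 0.0632 in hen2-4 (edgeR). PSBP1 and PSBR were the highest of the class, PSBP1 being an extrinsic protein of the oxygen-evolving complex and PSBR a small protein needed for its assembly. PSBP1 (AT1G06680) had 3659, 3079 and 3410.0 CPM at 10 min and 2508, 3237 and 2008 at 30 min in wt, with changes of -0.39 ± 0.18 in wt and -0.39 ± 0.18 in hen2-4 (edgeR adjusted p = 0.152 and 0.136). PSBR (AT1G79040) changed by -0.14 ± 0.20 and -0.31 ± 0.20 (edgeR adjusted p = 0.678 and 0.303). PSBQ1 (AT4G21280), another extrinsic protein, was the member whose value lay above 0 in both genotypes, 0.12 ± 0.19 in wt and 0.33 ± 0.19 in hen2-4, and passed neither test.

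The most abundant RBCS genes did not pass a test over time. RBCS1A (AT1G67090) had 8512, 6969.8 and 6333 CPM at 10 min and 6337, 7031 and 6657 at 30 min in wt, a change of -0.12 ± 0.17, and -0.30 ± 0.17 in hen2-4 (edgeR adjusted p = 0.657 and 0.221). RBCS3B (AT5G38410) changed by -0.41 ± 0.19 in wt and -0.19 ± 0.19 in hen2-4 (edgeR adjusted p = 0.142 and 0.506). RBCS1B (AT5G38430) was the exception. It had 207, 245 and 435 CPM in hen2-4 at 10 min and 703, 411 and 467 at 30 min, and rose by 1.78-fold (log2 0.83 ± 0.27, edgeR adjusted p = 0.0364), although replicate 3 at 10 min lay above replicate 2 at 30 min. The rise was not past the test with library sizes alone, with the replicate block, in the fit of both hen2-4 groups alone, or without replicate 1 or 2 of 10 min or 1 or 3 of 30 min. In wt it had 874, 645 and 676 CPM at 10 min and 779, 772 and 595 at 30 min, with a change of -0.03 ± 0.26 (edgeR adjusted p = 0.95).

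Whether the time changes differed between hen2-4 and wt was tested as the difference of the changes. By edgeR 0 of 40 members passed, as did 0% of all genes. At an unadjusted p of at most 0.05 there was 1 member, and DESeq2 and limma voom called 0 and 0, while 1079 of 18879 genes had such an unadjusted p. RBCS1B had the largest difference, 0.87 ± 0.37 (edgeR adjusted p = 0.868), and the differences of LHCB1.1 and LHCB1.4 were 0.11 ± 0.45 and -0.06 ± 0.43.

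The direct comparison of the mutants with wt at the same time asked whether loss of exosome function moved these genes. At 10 min 1 member was lower in hen2-4 and 0 were higher, beside 0.286% and 1.30% of all genes. This was RBCS1B, whose 3 hen2-4 libraries at 10 min (207, 245 and 435 CPM) all lay below the 3 of wt (874, 645 and 676 CPM), 2.47-fold lower (log2 -1.31 ± 0.27, edgeR adjusted p = 0.0212). That call was lost without wt replicate 1 or 3 or hen2-4 replicate 1 or 2 at 10 min, when 0 members passed. Counted over the main cluster alone, PSBX of PSII passed as well (-0.65 ± 0.18, edgeR adjusted p = 0.0362 over all clusters). How many of all clusters were lower in this comparison was not counted. At 30 min RBCS1B differed by -0.44 ± 0.26 between hen2-4 and wt (edgeR adjusted p = 0.585). At that time 0 members passed by edgeR, where 1.05% of all genes were higher and 0.260% lower. 2 members had an unadjusted p of at most 0.05, as did 2131 of 18879 genes, and DESeq2 called 1 and limma voom 0. The median log2 difference of the members was -0.07 at 10 min and -0.14 at 30 min, beside 0.007 and -0.03 over all genes. At 10 min the member median was 0.016 without wt replicate 1 and 0.046 without hen2-4 replicate 3, and without wt replicate 2 at 30 min the later median was 0.07.

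In rrp4-2 at 30 min, 1 member was higher than in wt and 0 were lower, beside 2.97% and 1.36% of all genes. LHCB2.1 had 328, 298 and 271 CPM in rrp4-2 and 122, 219 and 171 in wt at 30 min, without overlap, 1.75-fold higher (log2 0.81 ± 0.21, edgeR adjusted p = 0.0384). It lost the call with the replicate block, in the fit of both groups alone, without any single rrp4-2 library, without wt replicate 1 or 3 of 30 min, and without hen2-4 replicate 1 of either time or replicate 3 of 30 min, which enter only through the shared spread. Without wt replicate 2 at 30 min the number of members past the test was 3, beside 788 of 18900 genes. LHCB1.4 and LHCB1.1 showed larger differences that did not pass, 1.02 ± 0.31 and 0.98 ± 0.32 (edgeR adjusted p = 0.0767 and 0.102). LHCB1.4 had 222, 222 and 158 CPM in rrp4-2 and LHCB1.1 had 234, 155 and 148, each without overlap with wt at 30 min. In the other direction RBCS1A had 4526, 4498 and 4611 CPM in rrp4-2 against 6337, 7031 and 6657 in wt, also without overlap, with a difference of -0.55 ± 0.17 (edgeR adjusted p = 0.0825). Counted over the main cluster alone, RBCS1A passed (-0.61 ± 0.18, edgeR adjusted p = 0.04 over all clusters), and the share of all clusters that were lower was not counted. The class medians were 0.28 for LHCB, 0.17 for LHCA, 0.03 for PSII, -0.09 for PSI and -0.22 for RBCS, beside -0.01 over all genes. All 10 root markers lay below 0 in this comparison, with a median of -0.774. The part of root tissue in the members' differences was not tested.

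**Figure D4:**
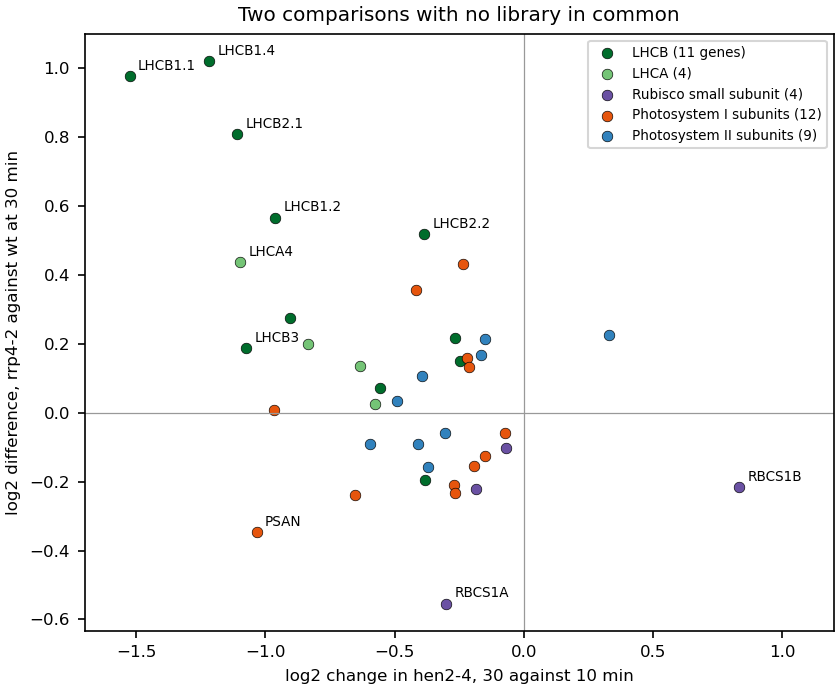
Log2 difference of rrp4-2 from wt at 30 min (y axis) against the log2 change of hen2-4 from 10 to 30 min (x axis) for the 40 members, a point per gene coloured by class. The comparisons share no library, and LHCB1.1 (-1.53 and 0.98), LHCB1.4 (-1.22 and 1.02) and LHCB2.1 (-1.11 and 0.81) lie at the upper left.

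LHCB2.1 was the one member past the test in both comparisons of that plot. Over the 40 members the difference in rrp4-2 and the time change in hen2-4, which come from separate libraries, had a Pearson r of -0.52 and a Spearman rho of -0.35, as a description. No rrp4-2 library of 10 min was used here, so the change over time in that genotype was not measured. Set against hen2-4 at 30 min, 0 members passed by edgeR, beside 0.392% of all genes. 7 members had an unadjusted p of at most 0.05, DESeq2 called 1, limma voom 0, and a fit of these 2 groups alone 3. Over all genes, 2384 of 18879 had such an unadjusted p, and the fit of these groups called 372 of 18550. 35 of 40 members lay above 0 with a median of 0.21, beside 10020 of 18879 genes and a median of 0.02 over all genes. This depended on single libraries. Without rrp4-2 replicate 1, 14 members lay below 0 (median 0.159), and without hen2-4 replicate 2 of 30 min 12 did (median 0.104). Without hen2-4 replicate 3 of 30 min, 1 did (median 0.285).

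Besides the main clusters, 32 of the 40 genes held 63 other start clusters. Of these, 37 lay inside the gene on its own strand, 18 inside the gene on the opposite strand and 8 on the opposite strand within 400 bp upstream. Antisense below means only the strand opposite to the member, and whether such a cluster is the start of a neighbouring gene was not checked. By the midpoint, 35 of the internal sense and 17 of the internal antisense clusters lay in coding exons. The internal sense clusters were faint, with 0.131 tags per 100 tags of the main clusters. They were lower at 30 than at 10 min in 6 of 37 cases in wt and 15 in hen2-4, where 7.28% and 9.25% of all clusters were. The 37 clusters lay in 19 genes and their tags are part of the gene values. They are thus not cases separate from each other or from the changes of those genes. An internal cluster of LHCA1 (chr3:20339965-20340224, minus strand) had 703, 497 and 365 tags in wt at 10 min and 255, 263 and 199 at 30 min, a change of -0.93 ± 0.28 (edgeR adjusted p = 0.0268). In LHCB1.1 such a cluster (chr1:10475640-10475715, minus strand) went from 47, 40 and 28 tags to 9, 7 and 5, a change of -2.26 ± 0.39 (edgeR adjusted p = 0.000621), beside -1.64 ± 0.32 for the gene.

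The clusters higher in the exosome mutants were antisense, and 1 internal sense cluster was lower. Among 61 other start clusters tested, 4 were higher in hen2-4 than in wt at 10 min, 4 at 30 min and 5 in rrp4-2 at 30 min, beside 5.51%, 5.16% and 7.53% of all 26504 clusters, while the other start clusters stood at 6.56%, 6.56% and 8.2%, near the background. All of these were antisense, and their calls held under every alternative. The same 4 were higher in all 3 comparisons: those upstream of PSBW and PSAD2 and those inside LHCB4.1 and PSAK. The fifth, upstream of PSAE2, was higher in rrp4-2. The cluster that was lower lay inside LHCB1.3 (chr1:10478093-10478142, plus strand) and was lower in hen2-4 than in wt at 30 min (log2 -1.52 ± 0.40, edgeR adjusted p = 0.0309). It was 1 of the 61 tested, and the share of all clusters that were lower there was not counted.

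The cluster upstream of PSBW (AT2G30570), a small PSII subunit, lay at chr2:13020326-13020408 on the plus strand. It had 1, 1 and 1 tags in wt at 10 min and 0, 1 and 4 at 30 min. In hen2-4 there were 35, 30 and 49 and 38, 43 and 40 tags, and 114, 72 and 97 in rrp4-2. The groups of mutants lay above wt without overlap, with log2 differences of 5.14 ± 0.59 and 4.41 ± 0.54 for hen2-4 and 5.56 ± 0.53 for rrp4-2 (edgeR adjusted p = 3.94e-05, 6.45e-05 and 3.64e-06). These rest on wt counts of 0 to 4 tags a library, so their size depends on the prior count of the fit. The PSBW gene itself differed by 0.18 ± 0.20 and -0.18 ± 0.20 in hen2-4 and -0.09 ± 0.20 in rrp4-2. Upstream of PSAD2 (chr1:754370-754496, plus strand) there were 9, 6 and 6 tags in wt at 10 min and 4, 8 and 9 at 30 min, 92, 107 and 75 and 88, 93 and 117 in hen2-4, and 245, 90 and 112 in rrp4-2. The log2 differences were 3.76 ± 0.45, 3.71 ± 0.45 and 4.23 ± 0.45 (edgeR adjusted p = 6.13e-05, 5.51e-05 and 1.1e-05), while the PSAD2 gene differed by 0.09 ± 0.23, 0.07 ± 0.23 and 0.43 ± 0.23.

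Upstream of PSAE2 (AT2G20260), a ferredoxin-side subunit of PSI, the cluster at chr2:8736559-8736587 (minus strand) had 96, 130 and 118 tags in rrp4-2 and 22, 34 and 11 in wt at 30 min, a difference of 2.16 ± 0.39 (edgeR adjusted p = 0.00134). In hen2-4 at 30 min it had 43, 48 and 30 tags, a difference from wt of 0.78 ± 0.39 (edgeR adjusted p = 0.363). The difference of rrp4-2 from hen2-4 was 1.39 ± 0.37 (edgeR adjusted p = 0.129), so that the mutants were not shown to differ.

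Inside LHCB4.1, on the minus strand of a coding exon (chr5:210191-210265), there were 14, 9 and 9 tags in wt at 10 min and 6, 10 and 5 at 30 min. The hen2-4 libraries had 53, 63 and 70 and 64, 57 and 108 tags and those of rrp4-2 64, 67 and 45, all above wt. The log2 differences were 2.58 ± 0.33, 3.32 ± 0.35 and 2.86 ± 0.35 (edgeR adjusted p = 0.000103, 1.24e-05 and 4.01e-05). Inside PSAK (AT1G30380), which binds antenna to PSI, the cluster at chr1:10722955-10723040 (minus strand, coding exon) had 7, 2 and 1 and 1, 4 and 4 tags in wt, 28, 31 and 40 and 26, 32 and 56 in hen2-4 and 23, 36 and 22 in rrp4-2. Its differences were 3.36 ± 0.49, 3.48 ± 0.49 and 2.93 ± 0.50 (edgeR adjusted p = 0.000311, 0.000259 and 0.000966). A cluster just upstream of LHCA1 (chr3:20341189-20341264, plus strand) did not pass the filter on low counts, with 0, 1 and 0 and 1, 0 and 0 tags in wt, 16, 7 and 8 and 2, 3 and 7 in hen2-4 and 25, 3 and 4 in rrp4-2.

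**Figure D5:**
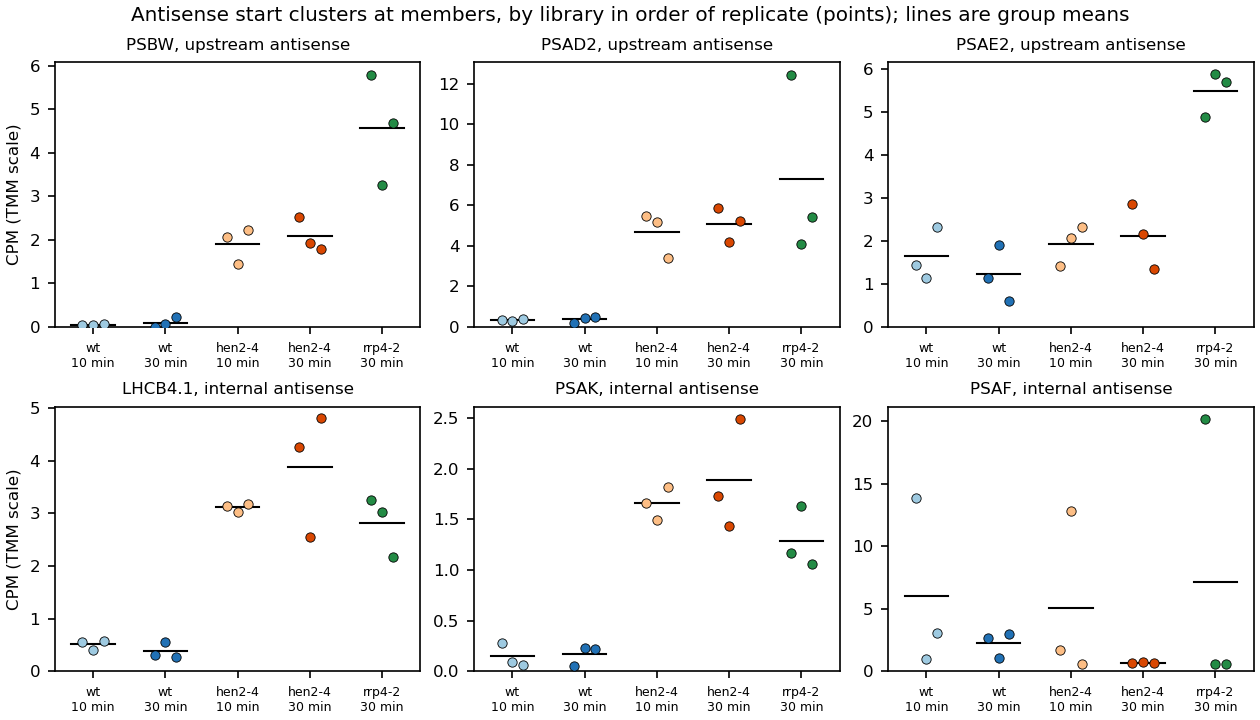
CPM (TMM scale, y axis from 0) of 6 antisense start clusters at members in the 5 groups (x axis), a point per library in order of replicate and a line at the group mean. At PSBW, PSAD2, LHCB4.1 and PSAK every mutant library lies above every wt library, at PSAE2 the 3 rrp4-2 libraries do, and at PSAF single libraries of 3 groups stand out.

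The upstream antisense clusters of PSBW, PSAD2 and LHCA1 are shown with a few bases before them, since these antisense starts had more tags in the mutants. Each is given 5′ to 3′ on the plus strand, opposite to the gene, with the antisense cluster in capitals and the bases before it, on the side of the gene, in lower case. At PSAD2 the capitals begin at the base next to the edge of the main cluster (chr1:754006-754369), and at LHCA1 the 25 lower-case bases span the gap from its main cluster (chr3:20340755-20341163).
PSBW antisense (chr2:13020312-13020408): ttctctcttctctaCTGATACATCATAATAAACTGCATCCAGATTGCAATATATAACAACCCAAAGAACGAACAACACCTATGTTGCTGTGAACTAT
PSAD2 antisense (chr1:754345-754496): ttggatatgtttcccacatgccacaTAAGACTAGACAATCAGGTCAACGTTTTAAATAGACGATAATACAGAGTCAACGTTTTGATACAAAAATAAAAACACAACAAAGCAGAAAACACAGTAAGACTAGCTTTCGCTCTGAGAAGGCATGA
LHCA1 antisense (chr3:20341164-20341264): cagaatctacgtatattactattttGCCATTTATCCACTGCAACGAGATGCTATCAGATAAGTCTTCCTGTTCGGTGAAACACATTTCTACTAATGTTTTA

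The other internal antisense clusters were high in single libraries of several groups. Over the 15 such clusters other than those of LHCB4.1, PSAK and PSBP1, the summed level was 56.7 CPM in wt replicate 1 at 10 min, 65.7 in hen2-4 replicate 2 at 10 min, 66.4 in rrp4-2 replicate 1 and 33.1 in wt replicate 3 at 30 min, against 7.92 to 23.0 CPM in the other 11 libraries. With PSBP1 included, these libraries ranked among the 3 highest in 9, 14, 10 and 6 of the 16 clusters, and the cause was not tested. Inside PSAF, on the plus strand of coding sequence (chr1:11215743-11215888), there were 347, 22 and 47 tags in wt at 10 min, 28, 266 and 13 in hen2-4 at 10 min and 398, 13 and 12 in rrp4-2. Inside PSBP1 (chr1:2048102-2048182, minus strand) other libraries stood out, with 21, 1225 and 194 tags in wt at 30 min and 1112, 383 and 11 in hen2-4 at 10 min. Upstream of PSAH2 (AT1G52230, chr1:19454554-19454734, minus strand) the antisense cluster was the most abundant of all, with 947, 904 and 387 tags in wt at 10 min and 609, 261 and 104 at 30 min. It was lower at 30 than at 10 min in hen2-4, from 541, 700 and 607 to 184, 198 and 141 tags (log2 -1.78 ± 0.49, edgeR adjusted p = 0.0168), while the PSAH2 gene changed by -0.07 ± 0.22. Whether this cluster belongs to a neighbouring gene was not checked.

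Genes of the surrounding pathways, listed with earlier results of these data known, were read in the same fit, against the same 7.72% lower and 12.2% higher of all genes in wt and 9.83% and 12.0% in hen2-4. Of 9 other antenna and photosystem genes, 2 fell in wt and 2 in hen2-4, and LHCB2.3, a further LHCII gene, fell by 1.39 and 1.34 on the log2 scale (edgeR adjusted p = 0.00402 and 0.0057). Of 10 genes of electron transport and ATP synthesis, 2 fell and 1 rose in wt, and 1 fell and 1 rose in hen2-4. The ferredoxin gene FD1 rose by 2.02-fold in wt and 2.81-fold in hen2-4 (log2 1.02 ± 0.15 and 1.49 ± 0.15, edgeR adjusted p = 0.000182 and 6.46e-06), and was lower in hen2-4 than in wt at 10 min (log2 -0.80 ± 0.15, edgeR adjusted p = 0.012). Of 8 Calvin-Benson genes, 3 fell in wt and 2 in hen2-4, among them RCA, the activator of Rubisco (-0.65 ± 0.17 and -0.76 ± 0.17).

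Of 14 genes of chlorophyll synthesis, 4 fell in wt and 1 in hen2-4. CAO, which makes the chlorophyll b that LHC proteins bind, fell in both (-0.98 ± 0.18 and -0.79 ± 0.18, edgeR adjusted p = 0.00103 and 0.00592). Of 12 regulators, 4 fell in wt and 2 in hen2-4. GLK2, an activator of photosynthesis genes, had 13.6, 18.4 and 18.9 CPM in wt at 10 min and 6.60, 3.04 and 4.85 at 30 min, and changed by -1.81 ± 0.33 in wt and -1.34 ± 0.33 in hen2-4 (edgeR adjusted p = 0.00107 and 0.00933). CGA1, a GATA factor that promotes chloroplast development, changed by -2.47 ± 0.54 and -2.36 ± 0.55, and its relative GNC by -1.003 ± 0.24 in wt. CGA1 was near the floor, with a mean of 0.89 CPM over the 15 libraries and 0.42, 0.11 and 0.44 CPM in wt at 30 min. In hen2-4 GNC had means of 15.97 CPM at 10 min and 12.35 CPM at 30 min and did not pass the test. Neither of the 2 genes for early light-induced proteins passed a test over time. Of the 10 root markers, 3 fell in wt and 1 in hen2-4, and EXPA7 was lower in rrp4-2 than in wt at 30 min (-1.22 ± 0.30).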

How the data were processed

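CAGE libraries of 15 samples in 5 groups of 3 were analysed from the tables of tag counts that the authors deposited, one by gene and one by tag cluster; per the submitters' processing notes, tags were mapped with Bowtie 1.1.2 to TAIR10, and per the methods only uniquely mapping tags of 25 bases were kept, with clusters of at least 1 TPM in at least 3 libraries. The deposited counts were whole numbers and not normalized. 9 columns of these tables matched no labelled sample and were not used, nor were the deposited normalized values. Library sizes of 13904125 to 24753128 gene tags keep counting error small beside the spread of replicates for the members' own tags, but not for clusters of a few tags.

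Counts passed edgeR's filterByExpr (18879 of 18934 genes and 26504 of 26677 clusters), were scaled with TMM and fitted by edgeR's quasi-likelihood method with 1 mean per group, with Benjamini-Hochberg adjustment over all genes or clusters. The test was checked on simulated counts. Chi-square values per degree of freedom between replicates of a group were 15.9 to 104.5, so no library was counted as a duplicate. The members, the other lists and the tests were chosen with earlier results of these data known. Genes named with full statistics were the 2 of highest mean CPM in each class and, for each comparison, up to 4 members past the test with the largest rise and 4 with the largest fall, plus at most 4 genes past the test of each other list; further names were chosen after their values were seen. Promoters came from the RefSeq copy of the nuclear genome (TAIR10.1, whose chromosome lengths cover the deposited coordinates), and the 5′ edge was taken as anchor after counts at the cluster midpoint had been seen (17, 25, 15 and 14 members with G-box, I-box, CCAATC and TATA box, and 0 of 11 LHCB promoters with a G-box). Alternatives were other scalings, no filter, DESeq2, limma voom, fits of the compared groups alone, the replicate number as a block, a limit of 2-fold and leaving out each library. Tools were R 4.3.3, edgeR 4.0.16, limma 3.58.1, DESeq2 1.42.0 and Python 3.11.15.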

Additional observations from a re-analysis of the deposited data

How the results depend on the processing

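Of 135 counts and medians recomputed under alternatives other than leaving out a library, 119 stayed within 1.5 times the count or within the spread of replicates, 16 did not and 0 changed sign as a called value. With library sizes alone, 18 members passed over time in wt and 23 in hen2-4, with medians of -0.61 and -0.63, and 18.1% and 20.4% of all genes were lower. The DESeq2 Wald test called 10 members over time in wt, 2 and 1 in hen2-4 against wt at 10 and 30 min, 4 in rrp4-2 against wt and 1 in rrp4-2 against hen2-4, beside 4350, 611, 481, 1389 and 385 of 18879 genes. Fits of the compared groups alone called 2 over time in wt, 0 in rrp4-2 against wt and 3 in rrp4-2 against hen2-4, beside 2255 of 18594, 203 of 18470 and 372 of 18550 genes. With the limit of 2-fold, 3 passed over time in wt, 6 in hen2-4 and 0 in rrp4-2 against wt. The cause of these shifts was not tested, apart from the limit of 2-fold, which by its construction only removes calls.

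With 1 library left out, 3 to 12 members passed over time in wt (12 without wt replicate 2 at 30 min), 3 to 15 in hen2-4, 0 to 1 in hen2-4 against wt at 10 min and 0 to 3 in rrp4-2 against wt. Of all genes, 5.1% to 8.4% were then lower over time in wt and 5.73% to 13% in hen2-4. The member medians were -0.57 to -0.19 over time in wt, -0.51 to -0.28 in hen2-4, -0.18 to 0.05 and -0.25 to 0.07 in hen2-4 against wt at 10 and 30 min (0.070 without wt replicate 2 at 30 min), -0.04 to 0.23 in rrp4-2 against wt and 0.10 to 0.29 in rrp4-2 against hen2-4. Other start clusters higher than in wt numbered 4 to 5 in hen2-4 at 10 min, 4 in every case at 30 min, and 5 to 6 in rrp4-2.

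The replicate numbers did not pair the libraries: 10 of 30 pairs with the same number had a correlation of deviations above 0.1 (range -0.365 to 0.44). With the replicate block, 7 members passed over time in wt, 10 in hen2-4, 1 in hen2-4 against wt at 10 min and 0 in rrp4-2 against wt. Of 19 calls on members, 4 held under all 23 alternatives. Depth limits the antisense clusters of a few tags in wt, and unique mapping limits the LHCB1, LHCB2 and RBCS copies.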
